A study of Mus musculus with 3 samples.

Results

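The interferon regulatory factor (IRF) genes Irf1, Irf2, Irf3, Irf4, Irf5, Irf7, Irf8 and Irf9 were examined by polyadenylated RNA-seq in mouse activated regulatory T cells. These 8 genes were chosen by name and matched to the gene tables through the GENCODE M21 annotation, where they are 8 of 55536 genes. The cells were primary cells of a male adult mouse of 9 weeks, and the strain name lists the alleles Foxp3GFP-DTR, CD4CreERT2 and R26tdTomato. There was 1 group, with technical replicates 1, 2 and 3 of 1 biological replicate, so the spread between libraries is technical and says nothing about differences between mice. No resting or conventional T cell population was analysed here, and the labels name neither the activating treatment nor any agent given to the mouse.

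IRF proteins share an N-terminal DNA-binding domain that recognises GAAA repeats, the core of the interferon-stimulated response element. Irf3 and Irf7 wait in the cytoplasm until kinases such as Tbk1 phosphorylate them after nucleic acid sensing, and they then switch on type I interferon genes. Irf9 is the DNA-binding part of the complex with Stat2 that carries the type I interferon signal to DNA, whereas Irf1 is induced by interferon gamma and Irf2 competes for many of the same sites. Irf4 and Irf8 bind DNA weakly alone and act with Batf-Jun or Ets partners. In regulatory T cells, Irf4 is known for its part in the effector programme.

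Depth ran from 18496690 to 21206219 estimated counts per library, and a gene with no reads could have up to 3 counts, which is 0.141 to 0.162 CPM, counts scaled to the library total. Reads carried no molecular identifiers in the files, so intervals and floors cover counting error only. The label was checked against listed markers, and 6 of 6 genes of the regulatory T cell list were detected. Cd4 and Cd3e on that list are also expressed by other T cells, so this count alone does not set regulatory T cells apart. Foxp3 had 90.1 ± 6.76 TPM, an abundance scaled to transcript length and depth. Il2ra had 352 ± 41.0 TPM (SD, n = 3) and was lowest in replicate 3 at 306 TPM. Summed levels of the markers of other cells ran from 63.3 to 72.8 TPM for 8 B cell genes, 29.8 to 45.0 TPM for 7 myeloid genes, 4.16 to 5.66 TPM for 4 plasmacytoid dendritic cell genes and 2.33 to 2.80 TPM for 5 conventional dendritic cell genes. Plasma cell genes summed to 2.18 to 4.96 TPM, NK cell genes to 2.04 to 3.13 TPM and CD8 T cell genes to 18.5 to 24.3 TPM.

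Transcripts annotated as retaining an intron took a large share of Irf7 and Irf3. The stretches shown here are the introns kept whole by the largest such transcript of each gene. All were read from the GENCODE M21 transcripts on mm10, 5′ to 3′ on the strand of the gene. Irf7-210, annotated as a retained-intron transcript, keeps intron 5 of the coding transcript Irf7-201, 69 bases at chr7:141264656-141264724 on the minus strand, and Irf3-207 keeps intron 5 of the coding transcript Irf3-202, 98 bases at chr7:45000547-45000644 on the plus strand. Capitals mark the splice donor GT and acceptor AG.
Irf7 intron 5: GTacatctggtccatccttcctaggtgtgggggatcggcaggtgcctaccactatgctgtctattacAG
Irf3 intron 5: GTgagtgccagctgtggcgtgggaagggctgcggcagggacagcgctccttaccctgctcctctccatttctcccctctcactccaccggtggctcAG
Read on from the start codon of Irf7-201, the reading frame meets a TAG stop inside the retained intron, 474 bases from the start. Read on from the start codon of Irf3-202, it meets a TGA stop 15 bases beyond the intron, 696 bases from the start. GC content was 53.6% for the Irf7 intron and 65.3% for the Irf3 intron.

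Coding transcripts of Irf7 and Irf4 differ by short stretches, which are shown because the split between them could be read from the estimates. Irf7-202 lacks exon 7 of Irf7-201, 93 bases at chr7:141264223-141264315 on the minus strand, and its coding sequence has 1278 bases against 1371 in Irf7-201. Irf4-202 lacks 3 bases at the start of exon 5 of Irf4-201, chr13:30753445-30753447 on the plus strand, which are in capitals in the longer junction, and its coding sequence has 1347 bases against 1350.
Irf7 exon 7: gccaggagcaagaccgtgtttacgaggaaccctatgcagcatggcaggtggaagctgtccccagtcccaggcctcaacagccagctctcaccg
Irf4-201 junction: tctgccagcccagCAGgttcataactaca
Irf4-202 junction: tctgccagcccaggttcataactaca

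All 8 IRF genes were detected, with 1 TPM or more in every library, where 22.7% of all genes and 47.3% of protein-coding genes reached that level. Their mean levels spanned 25.8 TPM for Irf4 to 394 TPM for Irf1, and their median of 129 TPM compares with a median of 26.1 TPM over 10425 detected protein-coding genes. The order of mean levels was Irf1, Irf3, Irf2, Irf9, Irf7, Irf8, Irf5 and Irf4.

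Irf1, an activator induced by interferon gamma, held the first place. Irf1 (ENSMUSG00000018899.16, chr11:53770014-53778374, plus strand, mm10) had 402, 379.7 and 399 TPM in replicates 1, 2 and 3, 394 ± 12.2 TPM (SD, n = 3), and ranked 338 among protein-coding genes. Irf2 (ENSMUSG00000031627.9, chr8:46739732-46847458, plus strand) had 179, 177 and 182 TPM, a mean of 179 ± 2.47 TPM. The 3 libraries lay close together for both genes, and Irf1, the activator of this pair, stood above its competitor in each of them.

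Among the factors that act downstream of nucleic acid sensing, Irf3 stood above Irf7. Irf3 (ENSMUSG00000003184.15, chr7:44997648-45002848, plus strand) had 194, 210.3 and 204 TPM, a mean of 203 ± 8.12 TPM. Irf7 (ENSMUSG00000025498.15, chr7:141262706-141266481, minus strand) had 99.2, 89.8 and 104 TPM, a mean of 97.5 ± 7.04 TPM. Replicate 2 was the highest library for Irf3 and the lowest for Irf7 on the TPM scale. Irf5 (ENSMUSG00000029771.12, chr6:29526625-29541871, plus strand), which acts below Toll-like receptors in myeloid and B cells, had 32.4, 35.5 and 30.6 TPM, a mean of 32.9 ± 2.48 TPM. All 3 libraries of Irf5 lay below every library of Irf7 and Irf3.

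Irf9 (ENSMUSG00000002325.15, chr14:55603571-55610030, plus strand), the partner of Stat2, had 153, 171 and 159 TPM, a mean of 161 ± 9.28 TPM, with replicate 2 highest. The pair of factors that depend on partners in lymphoid and myeloid cells came lower. Irf8 (ENSMUSG00000041515.10, chr8:120736358-120756694, plus strand) had 65.8, 49.9 and 53.2 TPM, a mean of 56.3 ± 8.39 TPM, and replicate 1 lay above the other two. Irf4 (ENSMUSG00000021356.10, chr13:30749226-30766976, plus strand) had 26.7, 27.0 and 23.7 TPM, a mean of 25.8 ± 1.82 TPM, and ranked 5246 among protein-coding genes. Irf4 was thus the lowest IRF gene measured in each library, and the values of Irf8 and Irf4 did not overlap. In bulk RNA, fewer cells that express a gene and less RNA per cell cannot be told apart.

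**Figure D1:**
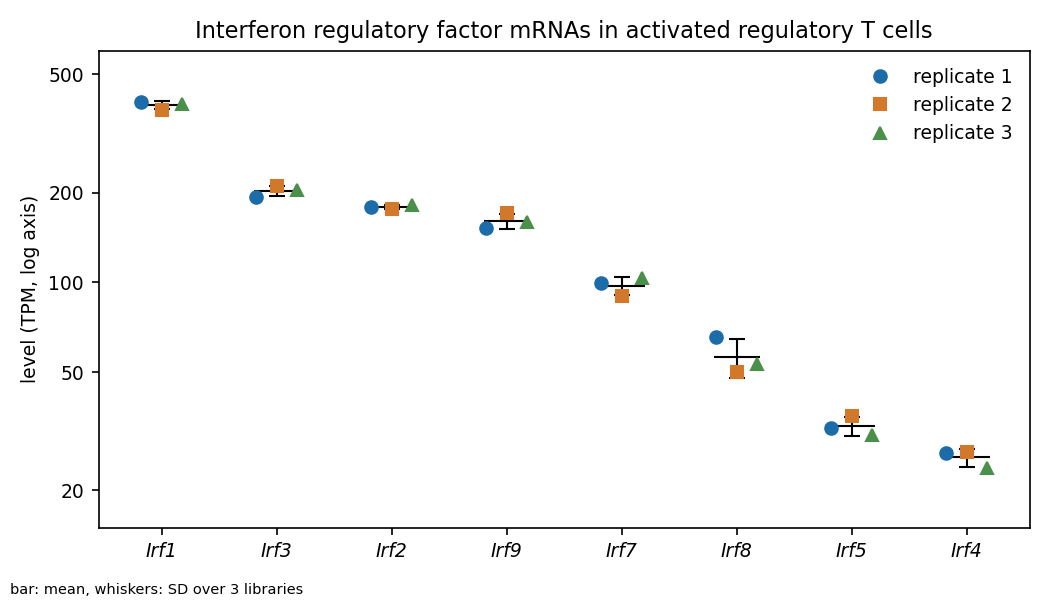
Level of each IRF gene in TPM on a log axis, with a point per library and a line at the mean of the 3 libraries. Irf1 lies highest with a mean of 394 TPM and Irf4 lowest with 25.8 TPM, and the 3 libraries of a gene lie close together beside the distances between most genes.

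Each neighbouring pair in this order kept its direction in all 3 libraries, with a mean log2 ratio larger than 1 SD, for all 7 pairs. A sign-flip test of 3 pairs cannot go below 0.25, so no p-value is given. The widest step lay between Irf1 and Irf3, a log2 ratio of TPM of 0.96 ± 0.10 (SD, n = 3), or 1.94-fold. The narrowest steps lay between Irf3 and Irf2, 0.18 ± 0.07 or 1.13-fold, and between Irf2 and Irf9, 0.16 ± 0.10 or 1.11-fold, where replicate 2 gave a log2 ratio of only 0.05. Irf5 stood above Irf4 by a log2 ratio of 0.35 ± 0.06. Steps of 0.72 ± 0.18, 0.80 ± 0.19 and 0.77 ± 0.27 separated Irf9 from Irf7, Irf7 from Irf8 and Irf8 from Irf5.

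The order was not the same in a second deposited gene table of whole-number counts on GENCODE M4 genes. With its counts divided by the length used in the first table and rescaled to the same sum as TPM, Irf3 came first at 414 and Irf1 second at 239.6, a log2 ratio of Irf3 to Irf1 of 0.79 ± 0.07 (SD, n = 3). Irf4 was last in this table too, at 24.4, while Irf5 at 97.0 and Irf8 at 93.8 were not set apart. Irf2 at 223 and Irf7 at 219 were not set apart either, and Irf9 followed at 198. The second table held 1656, 1655 and 1613 counts of Irf1 in replicates 1, 2 and 3, which is 15.6% of the estimated counts of the first table. For Irf3 it held 1441, 1579 and 1418 counts, or 52.4%, and for Irf5 it held 712, 707 and 602 counts, or 75.7%. The first place therefore belonged to Irf1 in the TPM values and to Irf3 in the second table, and how reads were counted for that table is not given in the sources used here.

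Transcript estimates divided the family into genes with 1 leading transcript and genes without. A single transcript held over 50% of the gene's summed TPM in every library for 5 of 8 genes. Irf5-201 held 96.0 ± 1.56% of Irf5 and Irf1-202 held 95.5 ± 1.83% of Irf1 (SD, n = 3). Irf8-201 held 81.2 ± 1.28% of Irf8, Irf9-205 held 80.5 ± 3.27% of Irf9 and Irf2-201 held 57.3 ± 1.64% of Irf2. The other coding transcript of Irf8 above 10%, Irf8-204, lacks exons 3 and 4, 273 bases together, and held 13.4 ± 0.381%. Irf2-205 held 23.4 ± 4.62% of the TPM of Irf2 but 4.72% of its estimated counts, since it is only 383 bases long.

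**Figure D2:**
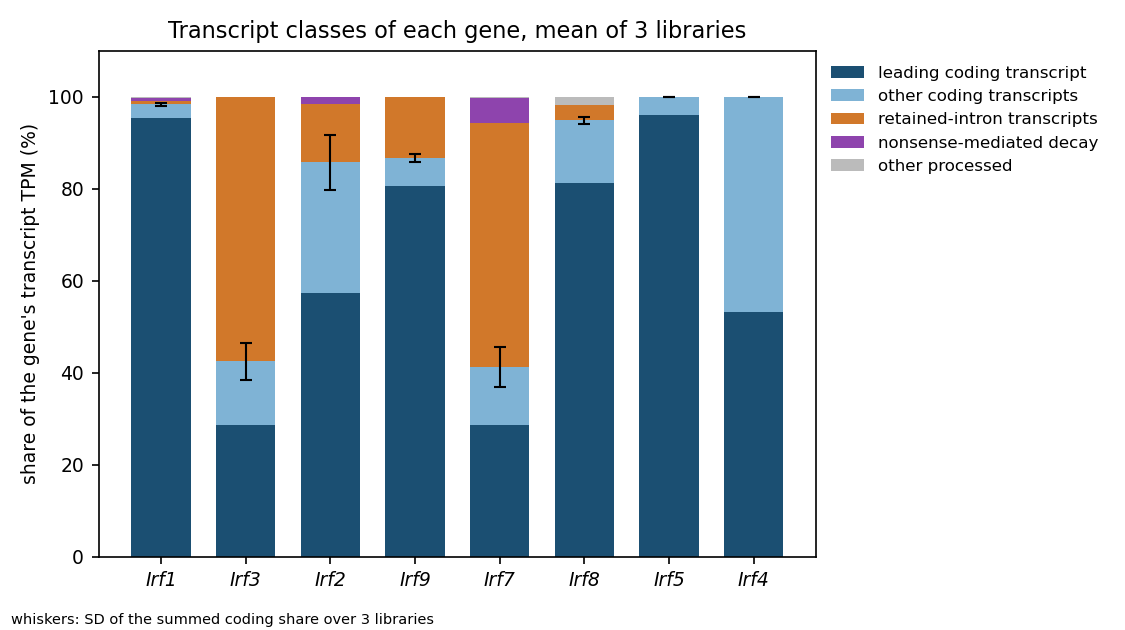
Share of each IRF gene's summed transcript TPM by annotated transcript class, as the mean of 3 libraries, with the share of the leading coding transcript. Retained-intron transcripts hold 57.5% of Irf3 and 53.1% of Irf7, and at most 13.3% of the other members.

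Irf3 and Irf7, the factors that answer nucleic acid sensing, were the members with most of their TPM in transcripts annotated as retaining an intron. For Irf3 that share was 53.3, 61.5 and 57.9% in replicates 1, 2 and 3, a mean of 57.5 ± 4.08% (SD, n = 3). For Irf7 it was 50.7, 47.1 and 61.5%, a mean of 53.1 ± 7.48%. The lowest of these values was 47.1%, and the highest library of any other member was Irf2 in replicate 2 with 17.4%. Over 6437 detected protein-coding genes that have such a transcript, the median share was 12.4% and the quartiles were 4.55 and 26.4%, which put Irf3 at percentile 94.6 and Irf7 at percentile 93.2. Irf9 with 13.3 ± 0.950% and Irf2 with 12.7 ± 5.20% lay near that median, and Irf1 with 0.758% lay far below it.

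Within Irf7, the retained-intron transcript Irf7-210 led with 28.2, 31.7 and 44.0 TPM in replicates 1, 2 and 3, or 35.4 ± 7.05% of the gene (SD, n = 3). The full-length coding transcript Irf7-201 had 24.2, 27.0 and 32.3 TPM, or 28.5 ± 3.67%. The exon 7 skipping transcript Irf7-202 had 20.8, 7.13 and 6.93 TPM, or 11.9 ± 7.92%. Replicate 1 thus stood apart for Irf7-202, and replicate 3 was highest for both other transcripts. The authors' deposited credibility intervals, which surround a posterior mean and not the TPM itself, ran from 18.6 to 32.4 TPM for Irf7-210 and from 4.36 to 29.3 TPM for Irf7-201 in replicate 1, so that they overlapped. For Irf7-202 the intervals ran from 11.3 to 27.6 TPM in replicate 1, from 2.16 to 11.8 TPM in replicate 2 and from 2.39 to 12.7 TPM in replicate 3, so that replicate 1 still overlapped the others slightly.

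The coding share of Irf7 was 41.1 ± 4.35% and that of Irf3 was 42.5 ± 4.08%. When only protein-coding transcripts were summed, Irf3 had 85.9 TPM and Irf7 had 40.2 TPM, and both lay below Irf9 with 139.5 TPM and Irf2 with 154 TPM. The mean of Irf7 then also lay below that of Irf8 with 53.4 TPM. In Irf3, the coding transcript Irf3-202 held 28.7 ± 2.64%, Irf3-207 held 24.9 ± 2.05%, Irf3-210 held 12.4 ± 1.62% and Irf3-212 held 11.1 ± 0.557%. The last pair, also annotated as retaining an intron, are short at 629 and 635 bases, and neither spans intron 5. Irf3-207 also starts from another first exon than Irf3-202, so intron 5 is not the only stretch that separates the pair. By estimated counts, Irf7-210 held 39.4% of Irf7, and Irf3-202 and Irf3-207 held 36.9 and 37.0% of Irf3.

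**Figure D3:**
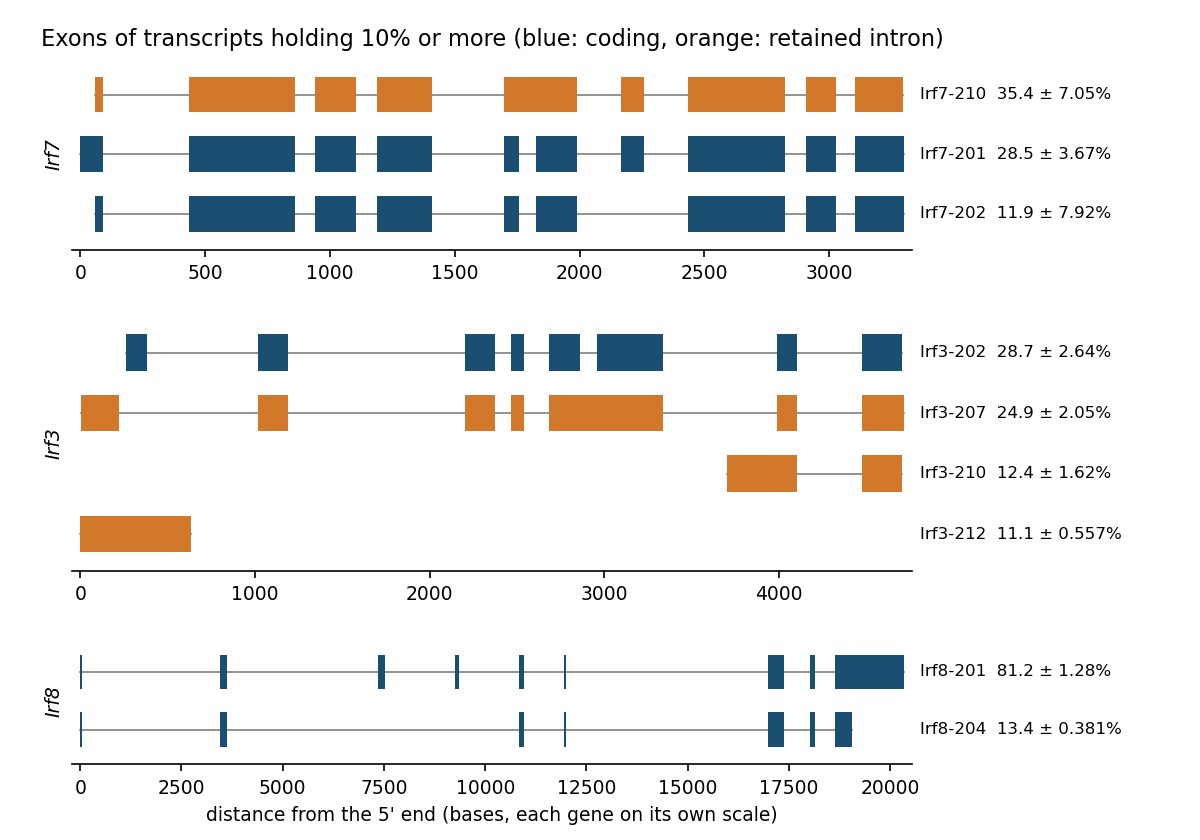
Exon maps of Irf7, Irf3 and Irf8 transcripts with 10% or more of their gene, by distance from the 5′ end in bases, with coding transcripts in blue, retained-intron transcripts in orange and the mean share of TPM with its SD beside each. Irf7-210 and Irf3-207 run through intron 5, of 69 and 98 bases, and Irf7-202 skips exon 7 of 93 bases.

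Irf4, the factor tied to the effector programme, was shared between transcripts that differ by the CAG shown above. Irf4-201 had 11.8, 15.5 and 13.8 TPM and Irf4-202 had 13.1, 9.62 and 9.98 TPM in replicates 1, 2 and 3. Their shares were 53.2 ± 7.78% and 42.2 ± 6.58% (SD, n = 3), and Irf4-202 was the higher in replicate 1 only. The deposited credibility intervals of replicate 1 overlapped, from 3.91 to 16.3 TPM for Irf4-201 and from 5.79 to 18.4 TPM for Irf4-202. Only reads across a single junction separate the pair.

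The libraries were compared with a chi-square test of homogeneity on rounded estimated counts relative to each library's total, over all genes with 30 or more summed counts. This test compares technical libraries and no conditions. It called Irf3, Irf5, Irf7, Irf8 and Irf9, 5 of 8 members, at a Benjamini-Hochberg adjusted p under 0.05, where it called 44.9% of all 14641 genes tested and 55.4% of genes with a mean count of 100 or more. The members' share lies near that background. The median ratio of the highest to the lowest library was 1.12 over the members and 1.15 over the 9956 genes with a mean count of 100 or more. Over the 6498 genes with a mean count of 500 or more, which every member reached, it was also 1.12. Coefficients of variation of CPM, with counting noise included, ran from 0.0104 for Irf2 to 0.147 for Irf8. The common value from edgeR over 13846 genes was 0.115. It leaves counting noise out, so it is not the same measure.

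Irf8, a factor of myeloid and B lineage cells that T cells also express, differed most. Irf8 had 105, 80.5 and 83.9 CPM in replicates 1, 2 and 3, 1.30 times as much in the highest library as in the lowest, with an adjusted p of 7.17e-17 by the chi-square test. Replicate 1 was high and the other two lay together, and without replicate 1 the adjusted p was 0.399. Summed marker levels in replicates 1, 2 and 3 were 63.3, 63.8 and 72.8 TPM for B cell genes and 43.2, 29.8 and 45.0 TPM for myeloid genes. By CPM, replicate 1 was highest for 1 of 8 B cell genes and 2 of 6 myeloid genes with counts, beside 34.2% of all genes tested. Cd68 was among them, with 12.8, 8.16 and 11.7 TPM. The Ets factor Spi1 was also highest in replicate 1, with 1.69, 0.98 and 0.47 TPM. The plasmacytoid and conventional dendritic cell markers were lowest in replicate 1, at 4.16 and 2.33 TPM. Cd79b at 38.7 TPM made up most of the B cell sum, Pax5 was at 0.597 TPM, S100a8 had no counts in any library and Flt3 was at 0.0900 TPM. Of these lists, 5 of 8 B cell, 5 of 7 myeloid, 1 of 4 plasmacytoid and 1 of 5 conventional dendritic cell markers were detected, and the part of such cells in the Irf8 level was not tested.

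Irf9 had 221, 251 and 232 CPM in replicates 1, 2 and 3, an adjusted p of 3.52e-09 by the chi-square test, and without replicate 2 the adjusted p was 0.0552. Irf3 had 131, 147 and 142 CPM, an adjusted p of 9.05e-05 by the chi-square test, and without replicate 1 the adjusted p was 0.363. Both were lowest in replicate 1 and highest in replicate 2. Irf5 had 43.9, 47.5 and 40.6 CPM, an adjusted p of 0.0135 by the chi-square test, which became 0.261 without replicate 2 and 0.171 without replicate 3. Irf7 had 101, 102 and 112 CPM, an adjusted p of 0.0031 by the chi-square test, and without replicate 3 the adjusted p was 0.707. Replicate 3 was thus highest for Irf7, while replicates 1 and 2 differed little.

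Irf7 was lowest in replicate 1 by CPM but in replicate 2 by TPM, and the effective length that the deposited table assigns to Irf7 was 1597, 1747 and 1699 bases in replicates 1, 2 and 3. Of the genes not called, Irf1 had 526, 510.0 and 526 CPM with an adjusted p of 0.0632 by the chi-square test, Irf2 had an adjusted p of 0.749 and Irf4 one of 0.116. The highest and lowest library of every member stayed as given under TMM and DESeq2 scaling, except that the highest library of Irf1 became replicate 3.

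**Figure D4:**
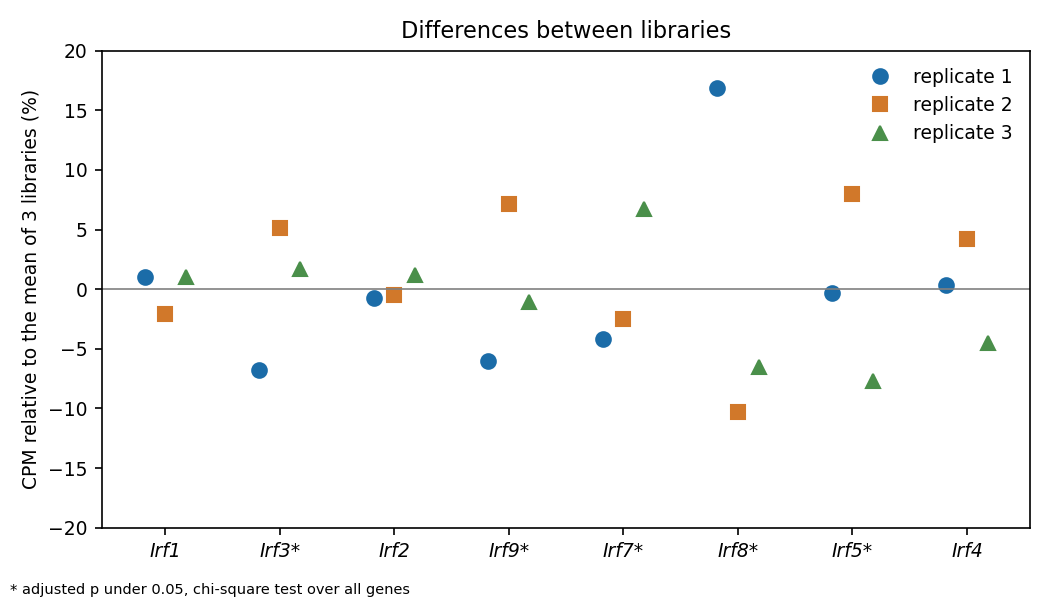
Level of each IRF gene in each library as the percent difference of its CPM from its own mean over the 3 libraries. Irf8 spreads widest, with replicate 1 above the others at 16.9% above the mean, and Irf2 spreads least; asterisks mark the 5 genes called by the chi-square test.

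Likeness to the library pattern of Irf8 was measured as the distance between log2 CPM deviations over 3 libraries, among 80 listed genes with a mean count of 100 or more. The nearest were Def6, a binding partner of Irf4 that limits its activity, with 251, 203 and 209 CPM at a distance of 0.05, and Irf2bp2, a binding partner of Irf2, with 18.5, 15.4 and 15.3 CPM at a distance of 0.08. Both were high in replicate 1, and with 3 libraries this is only a description.

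Exons of 5 IRF genes overlap those of another gene, and without a stated strand setting reads in the shared bases cannot be assigned. The overlap took 14.1% of Irf5 exon bases (Tnpo3, antisense, 90.9 TPM), 3.40% of Irf1 (Gm17334, antisense, 2.30 TPM), 2.56% of Irf3 (Bcl2l12, antisense, 29.4 TPM), 2.28% of Irf9 (Rnf31, same strand, 64.5 TPM) and 1.19% of Irf7 (Phrf1, antisense, 108 TPM). None of the overlap of Irf5, Irf7 and Irf9 fell on Irf5-201, Irf7-201, Irf7-210 or Irf9-205. It covered 4.68% of Irf1-202 and 0.560% of Irf3-202.

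Promoter windows of RefSeq genes on GRCm38.p6, from 250 bases before to 50 after the start, were searched on both strands for 3 sets of letters that these pathways use. All 8 genes matched, with 11 windows. The interferon gamma activation site letters TTCNNNGAA were in 3 of the 11 member windows, those of Irf1, Irf2 and Irf8, and in 8.30% of 32851 windows. The Irf1 match began 90 bases before the start at chr11:53769924-53769932, and Irf8 held a pair of matches at chr8:120736187-120736195 and chr8:120736205-120736213. Both genes lie on the plus strand.
Irf1 match: TTCCCCGAA
Irf8 first match: TTCTCGGAA
Irf8 second match: TTCAGAGAA
The interferon-stimulated response element, spelled as a pair of GAAA blocks with any 2 bases between them, was found among the members in Irf2 alone, 241 bases before the start, and in 3.44% of all windows. The AP-1 letters TGANTCA were in none of the members' windows and in 7.81% of all windows. A match is a description of letters and no evidence of binding.

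Of the DNA-binding partners of the family, 7 of 9 were detected, and 7 of 8 tested differed between libraries. For this list and those below, the background is 47.3% of protein-coding genes detected and 44.9% of all genes tested differing. Among genes with a mean count of 100 or more, 55.4% differed. Stat2, the partner of Irf9, had 82.2 ± 2.02 TPM (SD, n = 3). Junb had 448 ± 99.6 TPM and Batf 286 ± 28.7 TPM, the AP-1 proteins that pair with Irf4 in T cells. The Ets partner Spi1, known from myeloid and B cells, had 1.05 TPM and Batf3, a dendritic cell factor, had 0.203 TPM. All 7 regulators that bind IRF proteins were detected and 5 of 7 differed between libraries. Def6 had 170 ± 18.3 TPM, Trim21 had 94.3 TPM, Swap70 had 80.1 TPM, Irf2bpl had 37.1 TPM, Irf2bp2 had 5.07 TPM and Irf2bp1 had 3.85 TPM.

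All 14 kinases and adaptors that lead to Irf3, Irf5 and Irf7 were detected, with a median of 47.2 TPM. Between libraries, 8 of 14 differed, beside 44.9% of all genes tested. Tmem173, which encodes the adaptor STING, was the highest at 502 ± 10.8 TPM (SD, n = 3), followed by Ikbkb at 209 TPM, Tank at 194 TPM and Ikbke, an Irf3 and Irf7 kinase, at 166 ± 12.2 TPM. Ticam1, the adaptor of Tlr3, was the lowest at 7.40 TPM, with Traf3 next at 21.3 TPM. Among nucleic acid sensors, 8 of 9 symbols matched and 6 of 8 were detected. The RNA sensors Ddx58, Dhx58 and Ifih1 had 85.9, 27.8 and 21.8 TPM and Tlr7 had 21.02 TPM, whereas Tlr3 had 0.537 TPM and Tlr9 had 0.0133 TPM. Of the genes of this list that were tested, 3 of 7 differed between libraries, beside 44.9% of all genes tested.

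Of 9 interferon ligand genes, only Ifng was detected, with 14.5, 8.59 and 17.4 TPM in replicates 1, 2 and 3. It differed between libraries and was lowest in replicate 2. No reads were assigned to 7 of the others in any library, and Ifna4 had 0.05 TPM. Receptors and their kinases were present, with 8 of 9 detected and a median of 99.9 TPM. Between libraries, 8 of 8 tested differed, beside 44.9% of all genes tested. Ifngr1 had 413 ± 39.0 TPM, Jak1 had 403 ± 69.0 TPM, Ifnar1 had 157 TPM and Il10rb had 127 TPM (SD, n = 3), while Jak2 had 9.54 TPM and Ifnlr1, the interferon lambda receptor chain, had 0.0267 TPM.

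Type I interferon targets were all detected, 10 of 10, with a median of 31.3 TPM. Between libraries, 7 of 10 differed, beside 44.9% of all genes tested. Bst2 had 163 TPM, Usp18 had 134 TPM, Isg15 had 43.6 TPM and Ifit2 had 35.2 TPM, and the lowest were Rsad2 with 5.90 TPM and Ifi44 with 5.77 TPM. By CPM, 9 of 10 of these targets were highest in replicate 2, and 33.0% of all genes tested were highest there. Of the IRF genes, 4 of 8 were also highest there, Irf3, Irf4, Irf5 and Irf9. These counts include genes not called as differing between libraries, Irf4 among the members and Bst2 and Ifi44 among the targets. Stat2, the partner of Irf9, was highest in replicate 3, as were Irf2 and Irf7. Targets linked to Irf1 had a median of 205 TPM, with 9 of 10 detected and 6 of 10 differing between libraries. The immunoproteasome genes Psmb8, Psmb9 and Psmb10 had 1321 ± 54.3, 615 and 458 TPM and the peptide transporter Tap1 had 469 TPM, whereas Il15 had 1.31 TPM and Ciita, the master regulator of MHC class II, had 0.990 TPM.

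The 8 genes of the effector regulatory T cell list, several of which depend on Irf4 in published work on mice, were all detected, and 6 of 8 differed between libraries. Their median was 75.8 TPM, above the 25.8 TPM of Irf4 itself. Icos had 372 TPM, Tnfrsf9 had 276 TPM, Klrg1 had 113 TPM and Ccr8 had 90.5 TPM. Gzmb had 61.1 TPM, Prdm1 had 29.6 TPM, Il1rl1 had 24.4 TPM and Il10 had 6.24 TPM.

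**Figure D5:**
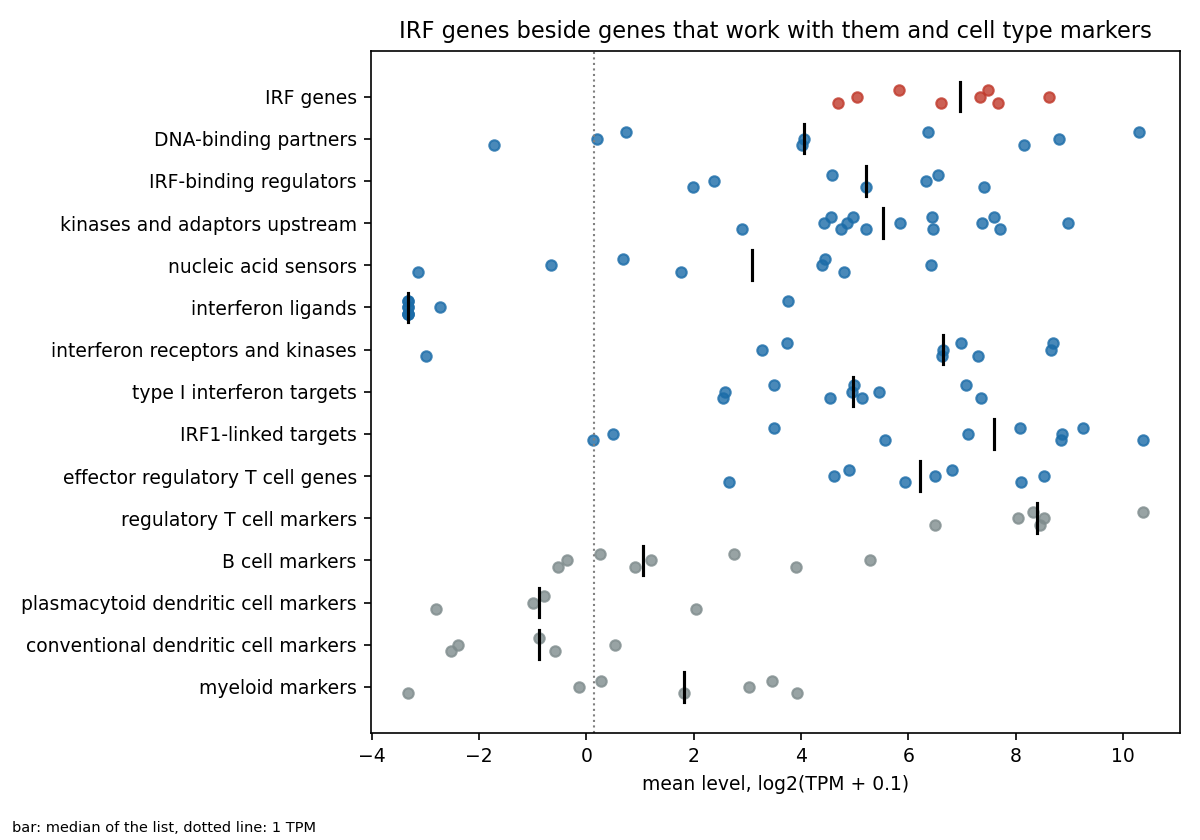
Mean level over 3 libraries as log2(TPM + 0.1) for the IRF genes, the genes of 9 pathway lists and the markers of 5 cell types, with a point per gene, a bar at each list's median and a dotted line at 1 TPM. The IRF genes have a median of 129 TPM, the targets linked to Irf1 have 205 TPM and 8 of 9 interferon ligand genes lie at or near 0 TPM, at the left edge.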

How the data were processed

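Per the labels, polyadenylated RNA was sequenced in 3 technical libraries of 1 biosample after shearing. The authors deposited a gene and a transcript table per library on mm10 with GENCODE M21, with column names as RSEM writes them, per the file headers and the lists of each library's files. The estimated counts (expected counts) deposited there divide reads among features, and the deposited TPM and FPKM scale them to effective length. The deposited percent of each gene's TPM held by a transcript was not used, since shares were recomputed from TPM. A second deposited table holds whole-number counts on GENCODE M4. For the aligner, the versions, the strand setting and duplicate handling, nothing is given in the sources used here. Rows that name no gene, 0.189 to 0.271% of counts, were left out of totals and tests.

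Levels are means of deposited TPM. Estimated counts were rounded, and a Pearson chi-square statistic with 2 degrees of freedom was computed for each gene against library totals over all genes with 30 or more summed counts, with Benjamini-Hochberg adjustment, after the test was tested on simulated data. Transcript structures and intron and exon sequences came from GENCODE M21, promoter windows from RefSeq. The 8 members and all lists were chosen with earlier results of these data known. Named genes were every gene of a list with no more than 8, the 4 highest and 2 lowest in mean TPM of a longer list, transcripts with 10% or more of a member, genes overlapping members, and the 2 genes most like a differing member with a ratio of 1.25 or more. Some genes that this rule names are not reported here but remain in the counts and medians of their lists. Of the marker lists only sums and some genes are given. Alternatives were other thresholds, FPKM, TMM and DESeq2 scaling, other filters, a deviance statistic, the second table, transcript counts and leaving out each library. Python 3.11.15 was used with pandas 2.3.3, numpy 2.4.6, matplotlib 3.10.9 and scipy 1.17.1, and library scaling came from DESeq2 1.42.0 and edgeR 4.0.16 in R 4.3.3.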

Additional observations from a re-analysis of the deposited data

How the results depend on the processing

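All 8 members stayed detected under every threshold tried, with FPKM and without each library. The 5 members that differed between libraries were the same genes under TMM and DESeq2 scaling, other count filters and the deviance statistic. Only 2 members differed in the second gene table, Irf8 with an adjusted p of 0.0214 and Irf9 with 0.00622 by the chi-square test, and without any 1 library the count was 3, with 2 libraries left to compare. Of all genes, 6575 of 14641 differed, against 2520 of 10885 in the second table, and the count lay between 3783 and 4701 with 1 library left out. All 7 neighbouring pairs stayed set apart with TPM + 1 and without each library, and 5 did so in the second table, whose order differs. The order of means also changed with protein-coding transcripts only. Irf3 with 85.9 TPM then lay below Irf9 and Irf2, and Irf7 with 40.2 TPM lay below Irf8 with 53.4 TPM. Genes with 1 transcript over 50% numbered 5 by estimated counts and 5 to 6 without 1 library, where leaving out replicate 1 added Irf4. The remaining single values under an alternative were judged by kind. Calls had to keep their side, levels to move by less than 1 SD, and counts of differing genes per list to stay within a fixed ratio. By these rules 219 held, 45 moved further, 9 lost their call and 0 reversed. Of those 9, 3 came from the second table, with adjusted p of 0.0574 for Irf3, 0.441 for Irf5 and 0.374 for Irf7 by the chi-square test. No paired analysis was possible because there was 1 group. Technical libraries of 1 biosample limit every statement to these cells, and the deposited intervals of Irf7-210 and Irf7-201, and of Irf4-201 and Irf4-202, overlap.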

Other observations

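The share of the estimated counts that the second gene table held fell with the count itself. Over 1814 genes with a mean count of 100 to 300 the median share was 51.7%, over 3167 genes of 300 to 1000 it was 50.8%, and over 2884 genes of 1000 to 3000 it was 46.3%. It was 34.2% over 1180 genes of 3000 to 10000 and 13.9% over 224 genes of 10000 to 30000. Irf1, with the highest counts of the family, had 15.6%, Irf9 had 31.5% and Irf2 had 31.9%. Irf4, with 24.2%, lay below the median of genes with counts like its own, Irf8 with 42.8% lay near it, and Irf3 with 52.4%, Irf7 with 58.0% and Irf5 with 75.7% lay above the medians of theirs.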
